A study of Mus musculus with 6 samples.

Results

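The genes described here are the chemokines and chemokine receptors whose symbols begin with Ccl, Ccr, Cxcl or Cxcr followed directly by a digit. They were chosen by symbol alone, though with earlier results of these data known. Of the 23279 genes tested, 48 met the rule: 32 ligands (19 Ccl and 13 Cxcl genes) and 16 receptors (10 Ccr and 6 Cxcr genes). They were measured in whole fetal livers of mouse embryos at embryonic day 11.5, on 3 Affymetrix arrays of livers labelled Stab2Cre;Gata4 knockout and 3 arrays of control livers titled Stab2Cre;Gata4 heterozygous. All embryos came from matings of Stab2-Cre tg/wt;Gata4 fl/wt with Gata4 fl/fl mice of the Gata4tm1.1Sad floxed line, so every embryo inherited a floxed Gata4 allele from the Gata4 fl/fl parent, and the titles of both groups name the Cre transgene. Stab2 encodes a scavenger receptor of sinusoidal endothelium, the cells in which this Cre is meant to act, whereas the arrays read the RNA of all liver cells together. The labels call the replicates biological. The number of embryos behind an array and which embryos were littermates were not found in the labels. The p-values set a difference between groups against the spread of these 6 arrays within their groups.

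Chemokines are small secreted proteins that attract cells along a gradient, and their receptors are seven-helix proteins that signal mainly through inhibitory G proteins. CC ligands (Ccl) and CXC ligands (Cxcl) are named for the spacing of conserved cysteines, and many of their genes lie in clusters that arose by duplication. The fetal liver is the main site of blood formation in mid-gestation, where Cxcl12 from stromal cells and its receptor Cxcr4 guide stem and progenitor cells, while Ccr2 and Cxcr2 are known from monocytes and neutrophils.

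All values are deposited log2 expression values. Every array had the same distribution, with a lower quartile of 3.72 and a median of 5.43. A difference is therefore a change in a transcript's place among the others in that distribution, not a measured change in amount. In whole tissue fewer cells of a type and less RNA per cell cannot be told apart. Gata4 read 10.38, 10.26 and 10.64 in livers labelled knockout, against 9.90, 9.96 and 9.87 in controls. It passed as higher in the labelled knockouts (log2 fold change 0.51, limma adjusted p = 0.0409). The direction of each difference therefore depends on the labels alone, with no support from the targeted gene. Xist, which is expressed from the inactive X of females, read between 10.31 and 10.71 in the 3 labelled knockouts and 10.19 in control replicate 2. It read only 3.58 and 3.96 in control replicates 1 and 3. By Xist all labelled knockouts were thus female, but among controls only replicate 2 was. Group and sex are therefore partly confounded, and a difference between groups may include a difference between sexes. Labelled knockout replicate 2 stood apart, with 93 array features more than 1 log2 unit above all the other arrays, against 4 to 11 such features for each other array. The genes that passed are therefore also given without that array and against control replicate 2 alone. A fit with a term for sex gives that same difference against control replicate 2, because the other controls serve only to estimate the sex effect, so its tests rest on a single control array.

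Of the 48 chemokine and receptor genes, 4 were lower in livers labelled knockout and 0 were higher by limma at an adjusted p of at most 0.05. The 4 were the ligands Ccl9, Ccl6 and Ccl17 and the receptor Cxcr2, which makes 8.33% of the set, beside 2.77% of all genes tested that were lower and 3.59% that were higher. At an unadjusted p of at most 0.05, 9 of the 48 were lower (18.8%) and 1, Ccr4, was higher (2.08%), beside 11.5% and 11.1% of all genes. In 9 genes every labelled knockout array lay below every control array, which is 18.8% of the set beside 14.3% of all genes. In 2 genes, Cxcl12 and Ccr4, every labelled knockout array lay above every control, which is 4.17% of the set beside 13.0% of all genes. The share without overlap to the lower side is near that of all genes, the share to the higher side is below it, and the count of 4 is small. The count was 3 (Ccl9, Ccl24 and Cxcr2) without labelled knockout replicate 1, 2 (Ccl6 and Ccl4) without labelled knockout replicate 2, and 1 (Ccl6) without control replicate 1. It was 0 without labelled knockout replicate 3, without control replicate 2 or without control replicate 3. Over all genes the lower calls also fell, from 644 with all arrays to 610, 301, 255, 87, 155 and 16 in these fits, in this order. A fit with a term for sex called 0 of the 48 and 3 of all 23279 genes (limma), and 5 of the 48 were lower at an unadjusted p of at most 0.05 in that fit.

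By its median the set as a whole differed little. The median log2 fold change, labelled knockout minus control, was −0.03 over the 48 genes, beside −0.01 over all genes. Ligands had a median of 0.02 and ran from −0.81 for Ccl6 to 1.28 for Cxcl13, with 15 below and 17 above zero. Receptors had a median of −0.08 and ran from −0.90 for Ccr2 to 0.24 for Ccr4, with 11 below and 5 above zero. By family, the medians were 0.04 for Ccl, −0.02 for Cxcl, −0.07 for Ccr and −0.09 for Cxcr genes. The median ligand deviated from its control mean by 0.06, −0.11 and −0.07 in the labelled knockouts and by 0.02, −0.05 and −0.01 in the controls. For receptors these deviations were −0.12, −0.01 and −0.14 in the labelled knockouts, against 0.01, −0.04 and −0.01 in the controls. By these medians the 2 groups of arrays overlapped in both roles, and no test of ligands against receptors was made. Levels summed after undoing the log2 scale did not overlap for receptors, at 426.2 to 439.3 in labelled knockouts, against 478.5 to 548.5 in controls. For Ccl genes they were 575.0 to 642.0, against 669.7 to 738.6. They overlapped for all ligands (1668.6 to 2316.6, against 1656.6 to 1860.1) and for Cxcl genes (1093.5 to 1723.5, against 948.5 to 1121.5).

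**Figure D1:**
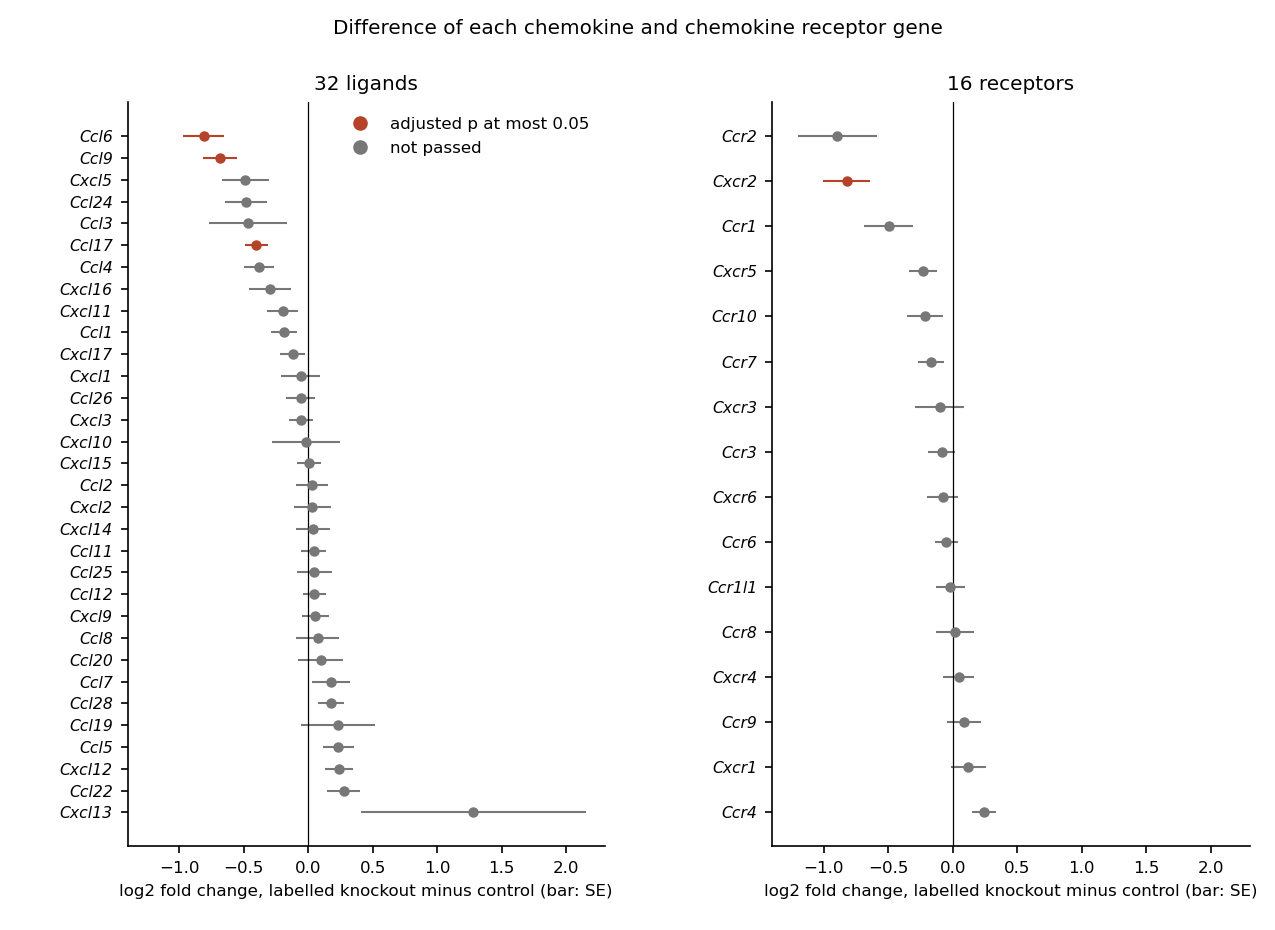
Log2 fold change, labelled knockout minus control, of each of the 32 ligands (left) and 16 receptors (right), with the standard error of the limma fit as a bar and n = 3 arrays a group. The 4 genes with an adjusted p of at most 0.05 (Ccl6, Ccl9, Ccl17 and Cxcr2) all lie left of zero, most other genes lie close to zero, and Cxcl13 at 1.28 has by far the widest bar.

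Most of the set read low in whole liver. Only 10 of the 48 genes had a mean above the array median of 5.43, and 17 lay in the lowest quartile of genes. The 10 were the ligands Cxcl12, Ccl9, Cxcl13, Ccl25, Ccl7 and Cxcl16 and the receptors Cxcr4, Cxcr2, Ccr7 and Ccr2. Of these 10, 2 (Ccl9 and Cxcr2) were lower by the test, as were 2 of the other 38 (Ccl6 and Ccl17). The files give no background per gene, so for a dim gene such as Ccl17, whose mean lies at the 24.5th percentile of all genes, expression cannot be told from background.

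**Figure D2:**
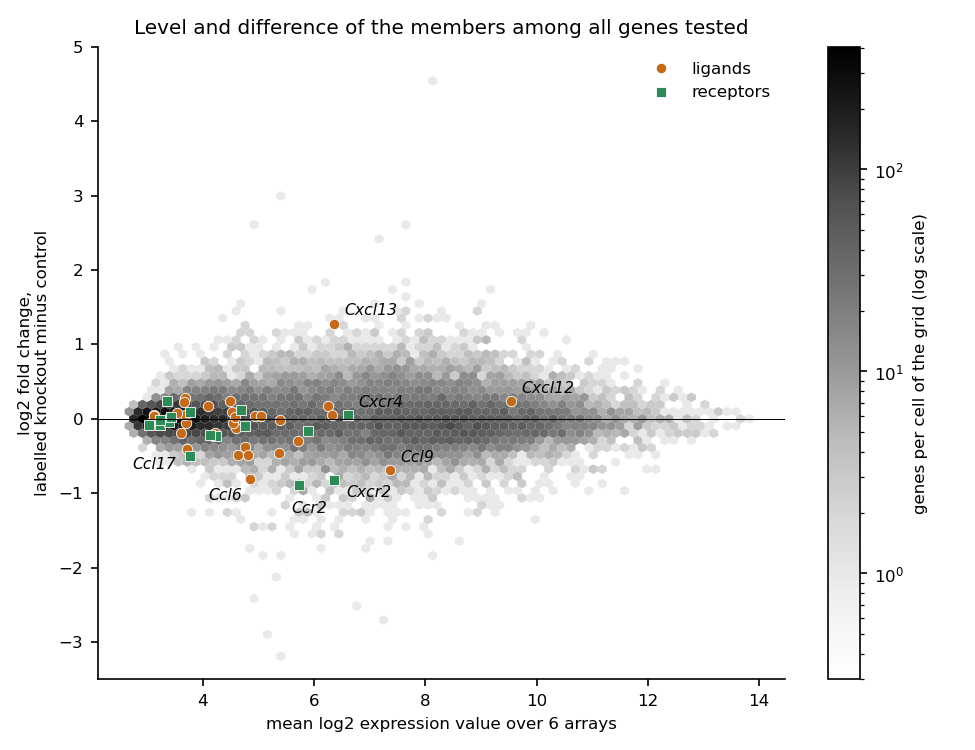
Each gene's log2 fold change, labelled knockout minus control (vertical), against its mean log2 value over the 6 arrays (horizontal). Grey cells count all 23279 genes on a log scale, circles are ligands and squares are receptors; 38 of the 48 members lie at or below the array median of 5.43, and the named ones below zero are Ccl17, Ccl6, Ccl9, Ccr2 and Cxcr2.

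Promoter sequence is shown for the 4 genes that passed the test, because these are the members that a difference between the groups was called for. The 250 bases before the annotated start were taken from RefSeq (GRCm38.p6), at chr11:83578637-83578886 for Ccl9 and chr11:83593088-83593337 for Ccl6, both on the minus strand, and at chr8:94810203-94810452 for Ccl17 and chr1:74153744-74153993 for Cxcr2, both on the plus strand. Capitals mark matches on either strand to a pair of short motifs, chosen with the sequences in view. The first is GATAA, a core bound by GATA factors, which reads TTATC on the opposite strand. The other is AGGAAG, a core bound by ETS factors such as PU.1, and on the opposite strand it reads CTTCCT.
Ccl9: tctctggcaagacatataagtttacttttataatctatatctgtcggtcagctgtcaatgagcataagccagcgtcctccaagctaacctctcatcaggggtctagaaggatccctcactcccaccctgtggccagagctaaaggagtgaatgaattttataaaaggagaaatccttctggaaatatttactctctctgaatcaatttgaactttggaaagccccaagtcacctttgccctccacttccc
Ccl6: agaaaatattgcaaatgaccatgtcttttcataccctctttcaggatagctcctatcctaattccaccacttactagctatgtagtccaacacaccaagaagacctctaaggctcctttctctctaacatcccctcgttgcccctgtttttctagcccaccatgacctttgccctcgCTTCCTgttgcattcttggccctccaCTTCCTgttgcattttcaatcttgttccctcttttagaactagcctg
Ccl17: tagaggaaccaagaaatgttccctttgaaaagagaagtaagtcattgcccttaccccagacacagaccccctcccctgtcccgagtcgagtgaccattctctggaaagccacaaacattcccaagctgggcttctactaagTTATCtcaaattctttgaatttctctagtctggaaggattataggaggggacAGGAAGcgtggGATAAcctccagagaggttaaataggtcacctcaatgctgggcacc
Cxcr2: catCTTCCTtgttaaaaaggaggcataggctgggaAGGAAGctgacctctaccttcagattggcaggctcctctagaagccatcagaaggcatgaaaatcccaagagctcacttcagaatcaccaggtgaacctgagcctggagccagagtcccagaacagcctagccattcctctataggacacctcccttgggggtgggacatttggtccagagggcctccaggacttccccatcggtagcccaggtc
The Ccl6 window held 2 AGGAAG matches and no GATAA, Ccl17 held 2 GATAA and 1 AGGAAG, Cxcr2 held 2 AGGAAG and no GATAA, and Ccl9 held neither. GATAA occurred in 22.6% of 32851 mouse promoter windows of this length and in 27.8% of the 36 windows of 34 members. AGGAAG occurred in 29.5% of all windows and in 41.7% of the members' windows. No match of one motif overlapped a match of the other, and a match describes the letters alone.

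Ccl9 and Ccl6, neighbouring CC ligand genes that both attract myeloid cells through Ccr1 in the mouse, were lower in every liver labelled knockout. Ccl9 read 7.04, 6.99 and 7.01 in labelled knockouts, against 7.58, 7.53 and 7.99 in controls, 1.61-fold lower (log2 fold change −0.69, SE 0.13, limma adjusted p = 0.0286). Ccl6 read 4.41, 4.57 and 4.35 in labelled knockouts, against 5.61, 5.08 and 5.06 in controls, 1.75-fold lower (−0.81, SE 0.16, limma adjusted p = 0.0294). In both genes the 3 labelled knockouts lay close together and below all controls, and the widest spread was among controls, with replicate 3 high for Ccl9 and replicate 1 high for Ccl6. Against control replicate 2 alone the differences were −0.52 for Ccl9 and −0.64 for Ccl6 (limma adjusted p = 0.279 for both with a sex term). Without labelled knockout replicate 2 they were −0.67 for Ccl9 (limma adjusted p = 0.0552) and −0.88 for Ccl6 (0.0397). The calls were sensitive to the arrays used: with each array left out in turn, Ccl9 passed in 1 of 6 fits (limma adjusted p from 0.0472 to 0.0860) and Ccl6 in 2 of 6 (0.0397 to 0.0931).

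In the RefSeq order of genes on chromosome 11, Ccl9 and Ccl6 lie among Ccl5, Ccl3 and Ccl4. Ccl3 and Ccl4 encode macrophage inflammatory proteins, and Ccl5 encodes RANTES, all inflammatory CC ligands. Ccl4 read 4.41, 4.77 and 4.49 in labelled knockouts, against 4.94, 5.02 and 4.87 in controls (−0.38, SE 0.12, limma adjusted p = 0.0971). Its groups did not overlap. Without labelled knockout replicate 2, the highest of its group, it was at −0.49 (limma adjusted p = 0.0445). Ccl3 was at −0.46 (limma adjusted p = 0.436) with overlapping groups, and Ccl5 was at 0.23 (limma adjusted p = 0.300). The median of these 5 genes was −0.46. A further run on chromosome 11, from the monocyte attractant Ccl2 through Ccl7, the eotaxin Ccl11, Ccl12 and Ccl8 to Ccl1, had a median of 0.04 and a range from −0.19 to 0.18. Ccl7, a ligand of Ccr2, read 6.33, 6.62 and 6.05 in labelled knockouts, against 6.26, 6.11 and 6.11 in controls (0.18, limma adjusted p = 0.563), and its groups overlapped.

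**Figure D3:**
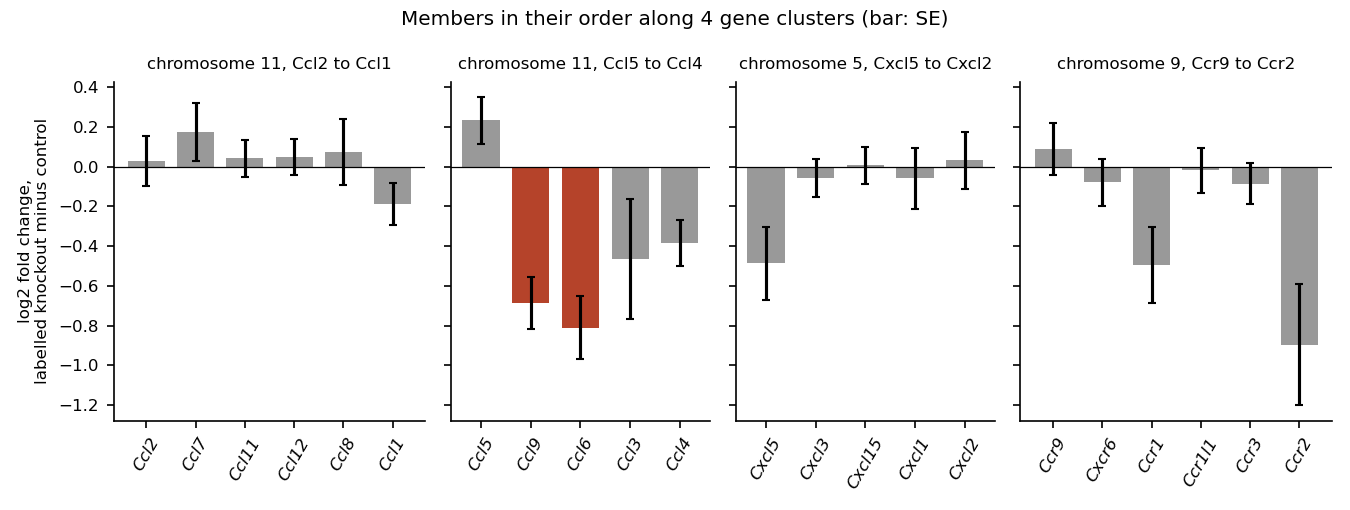
Log2 fold change, labelled knockout minus control, of the members in 4 gene clusters in their RefSeq order along the chromosome, with the standard error of the limma fit. Red bars mark the genes past the threshold, Ccl9 and Ccl6, which stand side by side on chromosome 11 next to Ccl3 and Ccl4, and the run from Ccl2 to Ccl1 stays between −0.19 and 0.18.

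Of the remaining CC ligands, Ccl17, which attracts T cells through Ccr4, passed the test at a low level. It read 3.48, 3.49 and 3.55 in labelled knockouts, against 3.85, 3.86 and 4.02 in controls, 1.32-fold lower (−0.40, SE 0.09, limma adjusted p = 0.0429). The groups did not overlap, but all 6 readings lay near the lowest quartile, and the gene passed in 0 of the 6 fits that left out an array (limma adjusted p from 0.0817 to 0.152). It was at −0.39 without labelled knockout replicate 2 and at −0.35 against control replicate 2 alone (limma adjusted p = 0.324 with a sex term). Ccl22, also a Ccr4 ligand on chromosome 8, was at 0.27 (limma adjusted p = 0.249). Ccl24, an eotaxin that acts through Ccr3, read 4.73, 4.22 and 4.22 in labelled knockouts, against 4.69, 4.87 and 5.06 in controls (−0.48, SE 0.16, limma adjusted p = 0.125). The groups overlapped, as labelled knockout replicate 1 lay among the controls. Ccl25, the ligand of Ccr9 known from thymus and gut, read 6.57, 6.06 and 6.42 in labelled knockouts, against 6.24, 6.38 and 6.29 in controls (0.05, limma adjusted p = 0.898), with overlapping groups.

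No CXC ligand passed the test: 0 of 13 by limma, with 1 lower at an unadjusted p of at most 0.05. That gene was Cxcl5, a neutrophil attractant that binds Cxcr2. It read 4.78, 4.50 and 4.43 in labelled knockouts, against 4.80, 4.90 and 5.47 in controls (−0.49, SE 0.18, limma adjusted p = 0.163), without overlap but with the highest labelled knockout only just below the lowest control. The other Cxcr2 ligands of the same chromosome 5 cluster were at −0.06 for Cxcl1, 0.03 for Cxcl2 and −0.05 for Cxcl3. Cxcl16, the ligand of Cxcr6 that also exists as a membrane-bound form, read 5.63, 5.29 and 5.75 in labelled knockouts, against 6.13, 5.66 and 5.77 in controls (−0.30, limma adjusted p = 0.339), with overlap. The Cxcr3 ligands Cxcl9, Cxcl10 and Cxcl11, which interferon induces, were at 0.05, −0.02 and −0.20.

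Cxcl12, the stromal ligand that retains blood stem cells in their niche, read 9.77, 9.60 and 9.61 in livers labelled knockout, against 9.29, 9.40 and 9.58 in controls. The groups did not overlap, but the lowest labelled knockout and control replicate 3 differed by little, and the gene did not pass (0.24, SE 0.11, limma adjusted p = 0.241). Its receptor Cxcr4 read 6.54, 6.85 and 6.48 in labelled knockouts, against 6.62, 6.47 and 6.63 in controls (0.05, SE 0.12, limma adjusted p = 0.877), with overlapping groups. Ackr3, the scavenging receptor that binds Cxcl12 and Cxcl11 and lies outside the symbol rule, read 9.62, 9.57 and 9.81 in labelled knockouts, against 8.81, 9.18 and 8.92 in controls. All labelled knockouts lay above all controls, 1.62-fold higher (0.69, SE 0.12, limma adjusted p = 0.0235). Ackr3 passed in 3 of the 6 fits that left out an array and not without control replicate 1 (limma adjusted p = 0.0660), control replicate 3 (0.0970) or labelled knockout replicate 3 (0.0783), and against control replicate 2 alone it was at 0.49 (limma adjusted p = 0.249 with a sex term). Of 15 mesenchymal markers, 5 were higher and 0 lower (median 0.52), beside 3.59% of all genes higher. That count was 1 without labelled knockout replicate 3, without control replicate 2, without control replicate 3 or with a sex term, 3 without control replicate 1, and 7 without labelled knockout replicate 2. On the arrays, the summed linear level of the list was 10952 to 12768 in labelled knockouts, against 7247 to 8646 in controls. Of 10 endothelial markers, 4 were higher and 0 lower (median 0.42), with summed levels of 5604 to 6959 in labelled knockouts, against 4285 to 4956 in controls. Their count was 0 without control replicate 2, without control replicate 3 or with a sex term, 1 without labelled knockout replicate 3, and 2 without control replicate 1 or labelled knockout replicate 1. Values on this scale have no zero, all markers of both lists read above the array median, and their part in the Cxcl12 and Ackr3 values was not tested. Both lists were chosen with earlier results of these data known, so the all-gene share beside a count is no test.

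Cxcl13, the ligand of Cxcr5 that organises lymphoid follicles, had the widest difference between means, and it came from a single array. It read 5.60, 9.45 and 5.93 in livers labelled knockout, against 5.55, 5.86 and 5.72 in controls (1.28, SE 0.87, limma adjusted p = 0.458). Without labelled knockout replicate 2 the difference was 0.05 (limma adjusted p = 0.892). On that same array, Slitrk6 read 7.96, against 4.04 and 4.43 in the other labelled knockouts, Ret, a neural crest receptor kinase, read 7.63, against 4.49 and 4.29, and Barx1, a homeobox gene of stomach mesenchyme, read 10.70, against 7.95 and 8.41. The summed linear level of a list of 6 foregut mesenchyme genes ran from 841 to 6079 in labelled knockouts, against 640 to 876 in controls, and that of 8 neural and neural crest genes from 219 to 1188, against 186 to 232. Both lists were written after these values were seen, labelled knockout replicate 2 gave the highest sum in each, and their part in the Cxcl13 value was not tested. Cxcr5, a receptor known from B cells, was at −0.23 (limma adjusted p = 0.270).

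**Figure D4:**
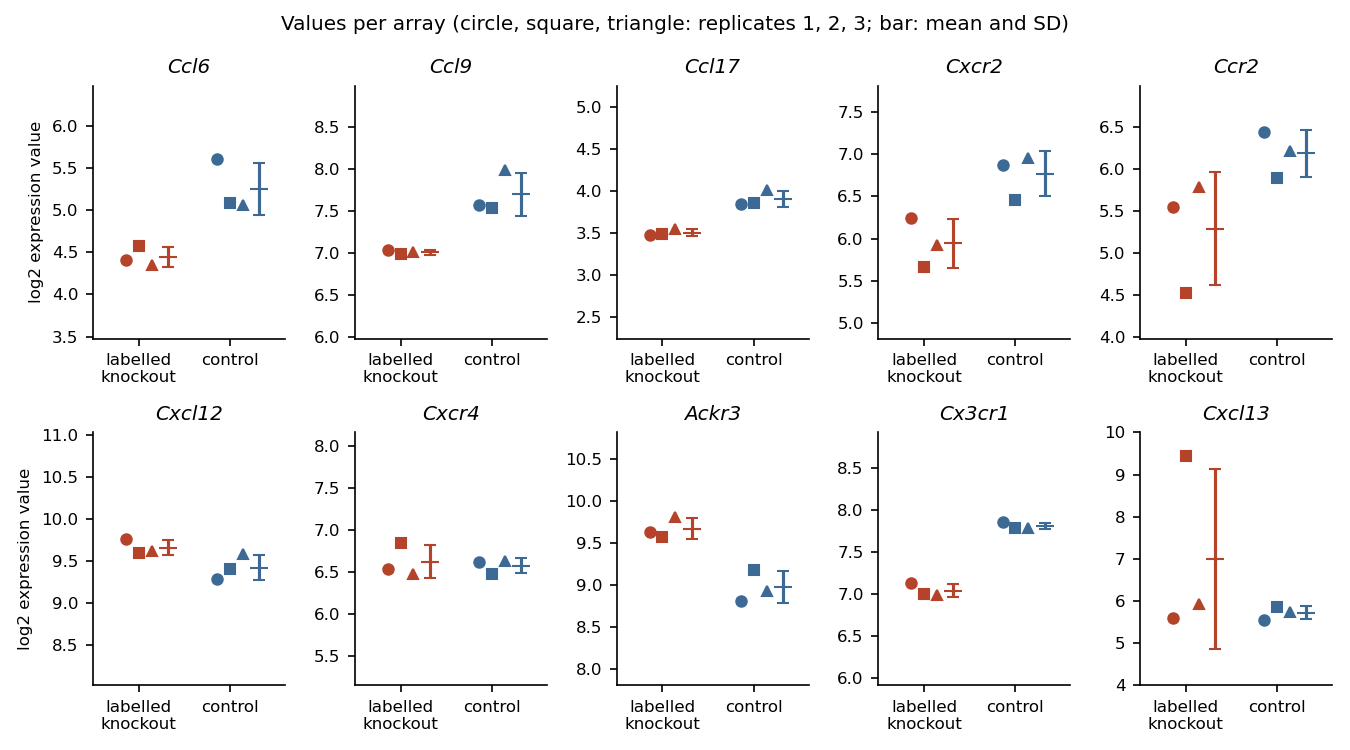
Log2 values on each array for 8 members and for Ackr3 and Cx3cr1, with labelled knockouts (red) left of controls (blue); circle, square and triangle are replicates 1, 2 and 3, and bars give mean and SD (n = 3). The groups separate for Ccl6, Ccl9, Ccl17, Cxcr2, Ccr2, Cxcl12, Ackr3 and Cx3cr1, overlap for Cxcr4, and Cxcl13 is high on labelled knockout replicate 2 alone; the last panel has a wider axis.

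Among the receptors, Cxcr2, which draws neutrophils and their precursors toward Cxcl1, Cxcl2 and Cxcl5, was the only one that passed. It read 6.24, 5.66 and 5.93 in livers labelled knockout, against 6.88, 6.46 and 6.96 in controls, 1.77-fold lower (−0.82, SE 0.18, limma adjusted p = 0.0387). Labelled knockout replicate 1 came within reach of control replicate 2, and against control replicate 2 alone the difference was −0.52 (limma adjusted p = 0.359 with a sex term). Without labelled knockout replicate 2 it was −0.68 (limma adjusted p = 0.0745). Cxcr2 passed in 1 of the 6 fits that left out an array (limma adjusted p from 0.0273 to 0.141). Its neighbour Cxcr1, also a receptor of neutrophil attractants, was at 0.12 (limma adjusted p = 0.691).

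Ccr2, the receptor that monocytes need to leave the marrow, did not pass. It read 5.55, 4.53 and 5.79 in labelled knockouts, against 6.44, 5.90 and 6.21 in controls (−0.90, SE 0.31, limma adjusted p = 0.129). The groups did not overlap, labelled knockout replicate 2 was far below the others, and without it the difference was −0.52 (limma adjusted p = 0.139). Against control replicate 2 alone it was −0.61. Ccr1, through which Ccl9 and Ccl6 act, read 3.74, 3.24 and 3.58 in labelled knockouts, against 3.91, 3.74 and 4.40 in controls (−0.50, SE 0.19, limma adjusted p = 0.172), just without overlap.

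Receptors of T cells and dendritic cells showed small differences. Ccr7, which brings these cells to lymph nodes, read 5.66, 5.91 and 5.86 in labelled knockouts, against 5.98, 5.93 and 6.02 in controls (−0.17, limma adjusted p = 0.383), with a narrow gap between the groups. Ccr4, the receptor of Ccl17 and Ccl22, read 3.48, 3.50 and 3.43 in labelled knockouts, against 3.12, 3.32 and 3.24 in controls (0.24, limma adjusted p = 0.165), with all readings in the lowest quartile. The 10 receptors not described array by array ran from −0.23 to 0.12 with adjusted p values of at least 0.270 by limma, and the 21 such ligands ran from −0.46 to 0.27 with adjusted p values of at least 0.249.

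Ligands were also set beside the receptors they bind, in 28 pairs, and in 0 of these did both genes pass by limma. A single side passed for the 4 ligands paired with Cxcr2, for Cxcl12 and Cxcl11 with Ackr3 and for Ccl17 with Ccr4. Ccl9 and Ccl6 with Ccr1 were not among these pairs, and there too the ligands alone passed. Ccl17 was lower while Ccr4 was at 0.24, and Cxcr2 was lower while Cxcl1, Cxcl2 and Cxcl3 lay between −0.06 and 0.03. For the monocyte axis, Ccr2 was at −0.90 and its ligands Ccl2, Ccl7 and Ccl12 were at 0.03, 0.18 and 0.05.

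Chemokine genes with other names were given beside the set. Of 7 further receptors, 1 was higher (Ackr3) and 1 lower, beside 3.59% and 2.77% of all genes. The lower was Cx3cr1, the fractalkine receptor of macrophages, at 7.13, 7.00 and 6.98 in labelled knockouts, against 7.86, 7.79 and 7.78 in controls (−0.77, SE 0.09, limma adjusted p = 0.00932). It passed in 5 of the 6 fits that left out an array and reached 0.0536 without control replicate 3. Against control replicate 2 alone it was at −0.75 (limma adjusted p = 0.154 with a sex term). Ccrl2, a non-signalling receptor that presents chemerin, read 5.73, 5.07 and 4.92 in labelled knockouts, against 6.34, 6.05 and 7.23 in controls, and stood just outside the threshold (−1.30, SE 0.32, limma adjusted p = 0.0512). Of 4 further ligands, 0 passed by limma, and 2 were lower at an unadjusted p of at most 0.05. These were the platelet chemokines Ppbp (−0.99, limma adjusted p = 0.0623) and Pf4 (−0.68, limma adjusted p = 0.0747), both without overlap. Of 10 megakaryocyte markers, 4 were lower and 0 higher (median −0.82), beside 2.77% of all genes lower. Their summed linear levels were 3100 to 6018 in labelled knockouts, against 6124 to 7581 in controls. The megakaryocyte count was 9 when labelled knockout replicate 1 was dropped and 1 when replicate 2 of that group was. It was 0 when replicate 3 of that group or any single control was dropped, or with a sex term. Over all genes the lower calls in the fits that left out an array ran from 16 to 610. All 10 markers read above the array median, and their part in the Ppbp and Pf4 values was not tested. These lists too were chosen with earlier results of these data known, so the all-gene share beside a count is no test.

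Downstream of the receptors, 7 of 29 measured signalling genes were lower and 1 was higher, beside 2.77% and 3.59% of all genes, and the median was −0.17. The 7 were the phospholipase Plcb2 (−0.96, limma adjusted p = 0.0204), the exchange factors Vav1 (−0.82, limma adjusted p = 0.0223) and Dock2 (−0.91, limma adjusted p = 0.0366), the GTPase Rac2 (−0.83), the actin regulators Coro1a (−0.82) and Was (−0.67), and the kinase Ptk2b (−0.95). All of these act in blood cell migration. Of the 29 genes, 19 were below and 10 above zero. The G protein genes of the list did not pass, with Gnai1 at 0.32, Gnai2 at 0.09, Gnai3 at −0.01, Gnb1 and Gnb2 at 0.08 and Gng2 at 0.51. Rac1 was at 0.17 and did not pass. The part of blood cell content in the values of this list was not tested. The higher gene was Grk5, a kinase that desensitises receptors (0.59, limma adjusted p = 0.0309). The list was chosen with earlier results of these data known, and none of the 8 passed in all 6 fits that left out an array. Dropping labelled knockout replicate 1 gave 11 lower and 2 higher, dropping labelled knockout replicate 2 gave 2 lower, and dropping control replicate 2 gave 1 lower. No signalling gene was called by limma when labelled knockout replicate 3 or either of the controls 1 and 3 was dropped, or with a sex term.

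Markers of several blood cell types were lower beside Ccl9, Ccl6, Cxcr2 and Cx3cr1. Of 16 macrophage markers, 13 were lower and 0 higher in livers labelled knockout (median −1.09), beside 2.77% of all genes lower. Their summed linear level was 1440 to 1915 in labelled knockouts, against 3019 to 3918 in controls. The macrophage count was 3 without control replicate 3, 8 without control replicate 1 or labelled knockout replicate 3, 11 or 12 without each other array, and 0 with a sex term. Of 14 granulocyte and monocyte markers, 9 were lower and 0 higher (median −1.10), with summed levels of 892 to 1698 in labelled knockouts, against 2819 to 4074 in controls. That count was 1 without control replicate 1 or 3, 2 without control replicate 2, 4 without labelled knockout replicate 3, 7 or 8 without each other labelled knockout, and 0 with a sex term. As examples, Csf1r, the growth factor receptor of macrophages, was at −1.33, and Mpo, the peroxidase of neutrophil granules, was at −1.34, while the macrophage marker Cd163 was at −0.09 and the monocyte marker Ly6c2 at 0.15, and neither of these passed. Of 8 erythroid markers, 4 were lower and 0 higher (median −0.80), among them Tal1 at −0.98 and Klf1 at −0.80, with summed levels of 6007 to 6767 in labelled knockouts, against 7687 to 12784 in controls. The erythroid count was 1 without control replicate 3, 2 without labelled knockout replicate 2 or 3 or control replicate 2, and 0 with a sex term. Of 11 lymphoid markers, all read below the array median, 1 was higher and 0 lower, with 0 called without each array in turn other than labelled knockout replicate 1, and the summed level was 167 to 183 in labelled knockouts, against 185 to 196 in controls. Without control replicate 3 the share of all genes called was itself small, with 41 genes in all. These lists were chosen with earlier results of these data known, so the all-gene share beside a count is no test. Their part in the chemokine and receptor values was not tested. For the cell type in which the Cre is meant to act, 5 of 8 sinusoidal endothelial markers were lower in whole liver and 0 higher (median −0.70). Their summed levels were 1147 to 1544 in labelled knockouts, against 2464 to 2757 in controls. That count was 1 without control replicate 3, 3 without control replicate 1 or 2, and 0 with a sex term. Liver identity was plain in the 9 hepatoblast markers, which all read above the array median in the mean, with 0 passed by limma, 3 higher at an unadjusted p of at most 0.05 and a median of 0.10. Without labelled knockout replicate 2, 2 of them were called higher, and 0 were called without any other single array.

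**Figure D5:**
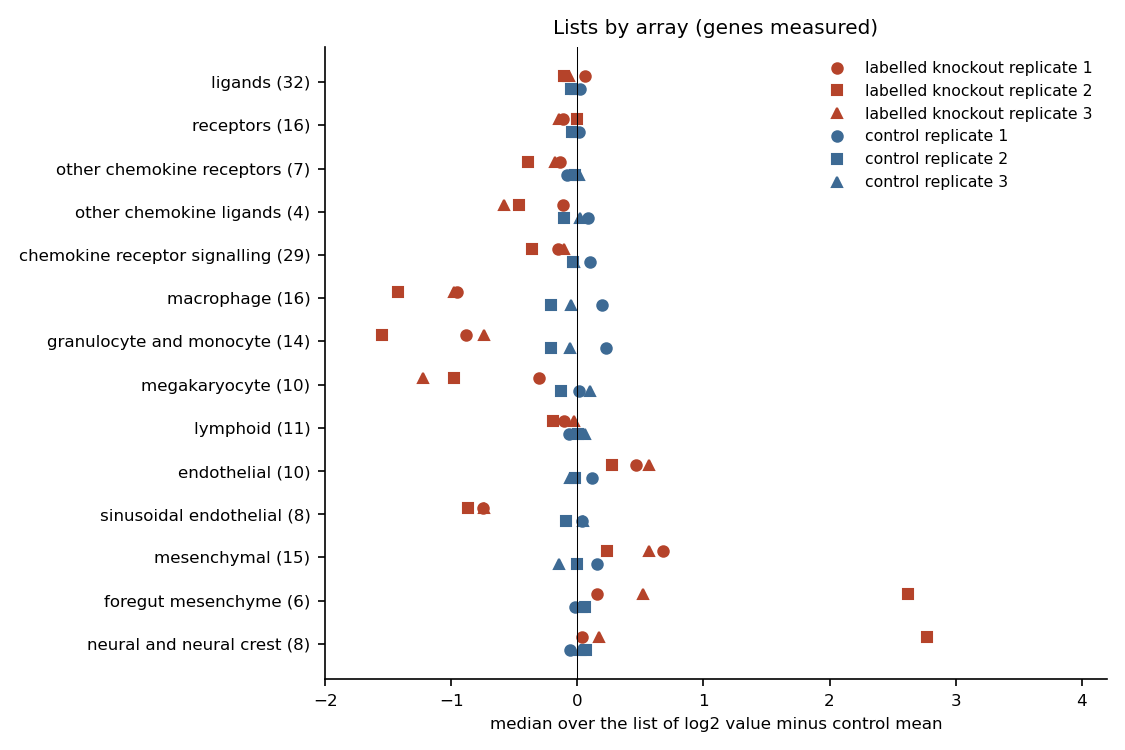
For each list, the median deviation of its genes from their control means in log2 units, shown for every array, with labelled knockouts in red above controls in blue and the number of genes measured in brackets. Ligands and receptors lie between −0.14 and 0.06 on all arrays, the macrophage and granulocyte and monocyte lists lie between −1.55 and −0.74 in labelled knockouts, and the foregut and neural lists are at 2.62 and 2.77 on labelled knockout replicate 2 alone.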

How the data were processed

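Total RNA of whole fetal liver was measured on 6 Affymetrix arrays, as the labels state. The authors deposited log2 values from RMA (background correction, quantile normalisation and probe summary), as the submitters' processing notes name it. Its version, the chip type and the annotation build were not given in the sources used here. Sorted values were identical in all arrays, as quantile normalisation leaves them, which hides any shift shared by most genes. Features numbered 24479. The platform annotation and a RefSeq table (GRCm38.p6) named 23281 of them, and 23279 genes remained after 2 second features of a gene were dropped for the one with the higher mean.

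Labelled knockout minus control was fitted with limma 3.58.1 under R 4.3.3 (linear model and moderated variances, no covariate, all 6 arrays, 4 residual degrees of freedom plus a prior of 4.06), with Benjamini-Hochberg adjustment over 23279 genes and a threshold of 0.05. With 3 arrays a group the smallest two-sided p of an exact permutation test is 0.1, so none was used. The script was tested on simulated data. Precision is limited by the number of arrays.

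The members and gene lists were chosen with earlier results of these data known. Values per array are given for members past the threshold, members with an unadjusted p of at most 0.05 and the 10 members with the highest mean, others by range or beside a partner. Of other chemokine and signalling lists, the genes past the threshold and a few more with the smallest p are named, and marker lists are given by counts and up to 2 examples. A list's summed linear level adds up its genes after undoing the log2 scale. Alternatives were a variance trend, robust eBayes, leaving out dim genes, array weights, a replicate block, a sex term, all features, rescaling, an adjusted p of 0.1 and leaving out each array. The comparison with control replicate 2 alone, the foregut and neural lists and the motifs were chosen after seeing the data.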

Additional observations from a re-analysis of the deposited data

How the results depend on the processing

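The 4 called members (3 ligands, 1 receptor) were also counted with a variance trend, robust eBayes, array weights, all features tested and rescaled arrays (4 each), and an adjusted p of 0.1 gave 5. Over all 23279 genes the variance trend called 817 lower, against 644 in the main fit. Leaving out the dimmest 25% of genes gave 3 of 31 members, beside 715 of the 17459 genes kept. Leaving out the dimmest 50% gave 2 of 10 members and 1 of 6 ligands, beside 950 of 11639 genes lower. Medians were then 0.11 for ligands and −0.50 for the 4 receptors left. With 25% out the receptor median was −0.19. A sex term gave 0 members, 0 ligands and 0 receptors (limma; 5 members lower at an unadjusted p of at most 0.05), and the cause was not tested. Leaving out each array in turn gave 0 to 3 members, 0 to 2 ligands and 0 to 1 receptors. The fits that gave 0 still had 6 to 9 members lower at an unadjusted p of at most 0.05, and over all genes the calls ran from 41 without control replicate 3 to 1395 without labelled knockout replicate 1.

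Same-numbered arrays of the 2 groups did not deviate together over all genes (correlations of −0.05, −0.01 and −0.08). These deviations also carry the sex difference among controls and the features that set labelled knockout replicate 2 apart. Whether same-numbered arrays shared a litter or a batch was therefore not tested. With the replicate number as a block, 1 member was called (Cxcr2), with 0 ligands and 1 receptor, beside 281 of all genes lower. Limma adjusted p values in that fit were 0.0514 for Ccl9, 0.0525 for Ccl6, 0.0823 for Ccl17 and 0.0330 for Cxcr2. No called member changed direction under any of these settings. Among the 17 members given array by array, 212 values stayed on their side of the threshold in their direction, 27 lost and 2 gained the call. Members near zero changed sign: Ccl25 was at −0.0309 with a sex term and, equally, against control replicate 2 alone, and at −0.0614 without labelled knockout replicate 1. Cxcr4 was at −0.0034 with array weights, −0.0632 without labelled knockout replicate 2 and −0.0042 without control replicate 2. Over the fits that left out an array, Ccl25 ran from −0.0614 to 0.1911 and Cxcr4 from −0.0632 to 0.118. Signal over background was not measured here, which limits the dim members most.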
